A study of Danio rerio with 54 samples.

Results

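The genes described here are the collagens, laminins, integrins and fibronectins of the zebrafish retina, chosen by symbol alone: every gene whose symbol starts with col, a number and a chain number, with lama, lamb or lamc and a number, with itga or itgb and a number or v, or with fn1. Of the 15245 genes counted, 55 matched, and 53 of these had at least 5 reads in at least 6 of the 48 time-course libraries, as did 13075 genes in all. The 53 were 13 fibrillar collagens, 3 basement membrane collagens, 9 other collagens, 9 laminins, 8 integrin α genes, 7 integrin β genes, 2 fibronectins and 2 genes that match by name only, col4a3bpa (a ceramide transfer protein) and itgb1bp1 (a protein that binds the cytoplasmic tail of the integrin β1 chain). The genes col8a1a and itgb3a were too low to be kept. Without the name-only genes 51 matrix and integrin genes remained.

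Collagens, laminins and fibronectins are secreted proteins that build the extracellular matrix. In the retina they make up the inner limiting membrane on which Müller glia end feet rest, Bruch's membrane under the pigment epithelium, the basement membranes of vessels, and the fibrils of the vitreous. Integrins are receptors of an α and a β chain that bind these proteins outside the cell and link them, through talin and kindlin, to the actin cytoskeleton.

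Adult albino zebrafish, 6 to 9 months old, were kept in the dark for 5 days and then exposed to light of about 100000 lux for 30 min followed by about 10000 lux, which ended at 72 h. Whole left-eye retinas of single fish were taken during or after the light (24, 36 and 72 hpl, hours post light; 5, 10, 14 and 28 dpl, days post light, all counted from light onset), after dark adaptation with no light (0 h), or from fish that were neither dark adapted nor exposed (naive), with 6 retinas in each of the 9 groups. The time-course was run as 2 experiments of 3 fish per group, taken here as replicates 1 to 3 and replicates 4 to 6 from the names of the raw files, and messenger RNA was counted by 3′ end sequencing. Naive fish, described in the paper as age-matched, all bear a single age within 6 to 9 months in the names of their raw files. Retinas were separated from the lens and some vitreous was harvested with them.

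Total reads ranged from 1111503 to 4040445 in 47 time-course libraries and came to 228611 in 5 dpl replicate 2, 9.06% of the median of the other 5 dpl libraries. The members took between 0.0818% and 0.207% of a library's reads, so that many of them rest on few reads per retina. Levels are given as CPM, read counts divided by library size after scaling by the trimmed mean of M values. One read stands for one transcript end. Levels are compared here between groups within a gene, and between genes only to choose which to name. Unless another test is named, "called" means an adjusted p under 0.05 from edgeR's quasi-likelihood test, fitted over all 13075 genes with a term for the experiment and adjusted over all of them by the Benjamini-Hochberg method, and fold changes are given with their SE.

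The label of the tissue was checked with marker genes. The summed level of 9 rod and cone genes lay between 2710 and 5031 CPM at 72 hpl, against 51678 to 79587 CPM at 0 h. Genes of microglia and macrophages summed to 183.5 to 335.7 CPM at 24 hpl, against 24.8 to 52.9 CPM at 0 h, and 5 of the 6 measured were called higher (csf1rb and ptprc were not used). In whole tissue, fewer cells of a type and less RNA per cell cannot be told apart, and this holds for every level below.

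Most of the matrix and integrin genes that changed after light were lower than at 0 h, and a few rose. At 24 hpl 18 members were called (36.6% of all genes were), 3 higher and 15 lower, where 19% and 17.7% of all genes were called in those directions. At 36 hpl 31 were called (47% of all genes), 4 higher and 27 lower, or 7.55% and 50.9% of the 53, against 23.6% higher and 23.4% lower among all genes. At 72 hpl 27 were called (42.9% of all genes), 6 higher and 21 lower, with 22.7% and 20.2% over all genes. The share of members called lower was thus above that of all genes at each of these times, and the share called higher was below it. At 5 dpl 19 were called (31.8% of all genes), 5 higher and 14 lower, with 17.5% and 14.3% over all genes. Marker genes of Müller glia, whose end feet rest on the inner limiting membrane, had lower sums in the same retinas at 24 and 36 hpl, with no overlap. All 7 were measured, and they summed to 828 to 1663 CPM at 24 hpl and 895 to 1486 CPM at 36 hpl, against 2143 to 3047 CPM at 0 h. At each of these times 5 were called lower and 2 higher, with median log2 fold changes of -0.95 and -1.04. At 72 hpl the sums were 2464 to 3025 CPM, within the 0 h range, with 1 called lower and 2 higher. Genes of the pigment epithelium, 5 of 5 measured, were higher at 36 hpl, with 4 called and sums of 1119 to 2775 CPM, against 668 to 1334 CPM at 0 h. The part of either in the members' results was not tested.

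Fewer members differed from 0 h later on. At 10 dpl 4 were called (9.91% of all genes), 2 higher and 2 lower (all genes 7.06% and 2.85%). At 14 dpl 9 were called (13.2% of all genes), 1 higher and 8 lower (8.5% and 4.67%). At 28 dpl 4 were called (8.08% of all genes), 0 higher and 4 lower (4.72% and 3.36%). Scaling by library size alone gave 1 higher and 2 lower at 10 dpl and 0 higher and 9 lower at 14 dpl, and it gave a median log2 fold change of all genes of 0.01 in place of -0.10 at 24 hpl, -0.16 in place of -0.01 at 14 dpl and -0.11 in place of -0.00106 at 28 dpl. The members' median log2 fold change against 0 h, with the main scaling, was -0.45, -0.73, -0.40, -0.46, -0.21, -0.36 and -0.26 from 24 hpl to 28 dpl, beside medians over all genes between -0.10 and -0.00106. In an F test over all 8 groups, 31 of the 53 members were called, a share of 58.5% where 58.1% of all genes were called. Some members with a pairwise call given below were not called by it. Among these were col2a1a, lamc1, col11a2, lama2 and itga9 (adjusted p = 0.0632, 0.0877, 0.0977, 0.108 and 0.191, edgeR F test).

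**Figure D1:**
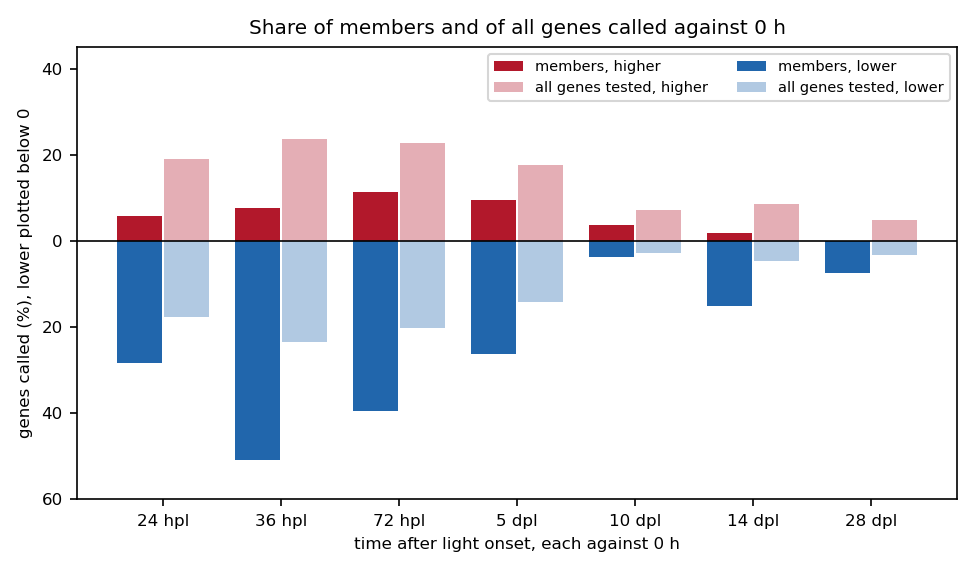
Share of genes called against 0 h at each time (edgeR, adjusted p under 0.05), in percent, for the 53 members (solid) and all 13075 genes tested (pale); shares called higher are drawn above 0 and shares called lower below it. At 36 hpl 50.9% of the members and 23.4% of all genes were called lower, while 7.55% and 23.6% were called higher.

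Because the experiments shared no library, each was also fitted alone. At 36 hpl 38 of the 53 members were lower in both experiments, 7 were higher in both and 8 had opposite signs. The 38 are 71.7% of the members, where 41.3% of all genes were lower in both. The 7 are 13.2%, where 36.8% of all genes were higher in both. The median log2 fold change of the members at 36 hpl was -0.84 in experiment 2 and -0.51 in experiment 1. At 28 dpl 27 were lower in both, 6 higher in both and 20 opposite. The 27 and the 6 are 50.9% and 11.3% of the members. Of all genes 31.8% were lower in both and 29.9% higher in both, and the rest were neither, as were the 20 members.

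Single 0 h libraries bear on all the comparisons with 0 h. Replicate 4 held the highest of the 6 values for 19 of the 53 members, and replicate 5 the lowest for 30. The members took 0.0966% of the reads of replicate 5, against 0.1562% to 0.1967% in the other 0 h libraries. Without replicate 4 the members called numbered 13 in place of 18 at 24 hpl, 27 in place of 31 at 36 hpl, 23 in place of 27 at 72 hpl, 14 in place of 19 at 5 dpl, 2 in place of 4 at 10 dpl, 4 in place of 9 at 14 dpl and 2 in place of 4 at 28 dpl. Without replicate 6, 2 were called at 10 dpl. The share of all genes called in these reduced fits is not given, so the drop cannot be read as particular to the members. The ranges over all single libraries left out, given in the closing section, also hold higher counts at 5, 10 and 28 dpl.

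**Figure D2:**
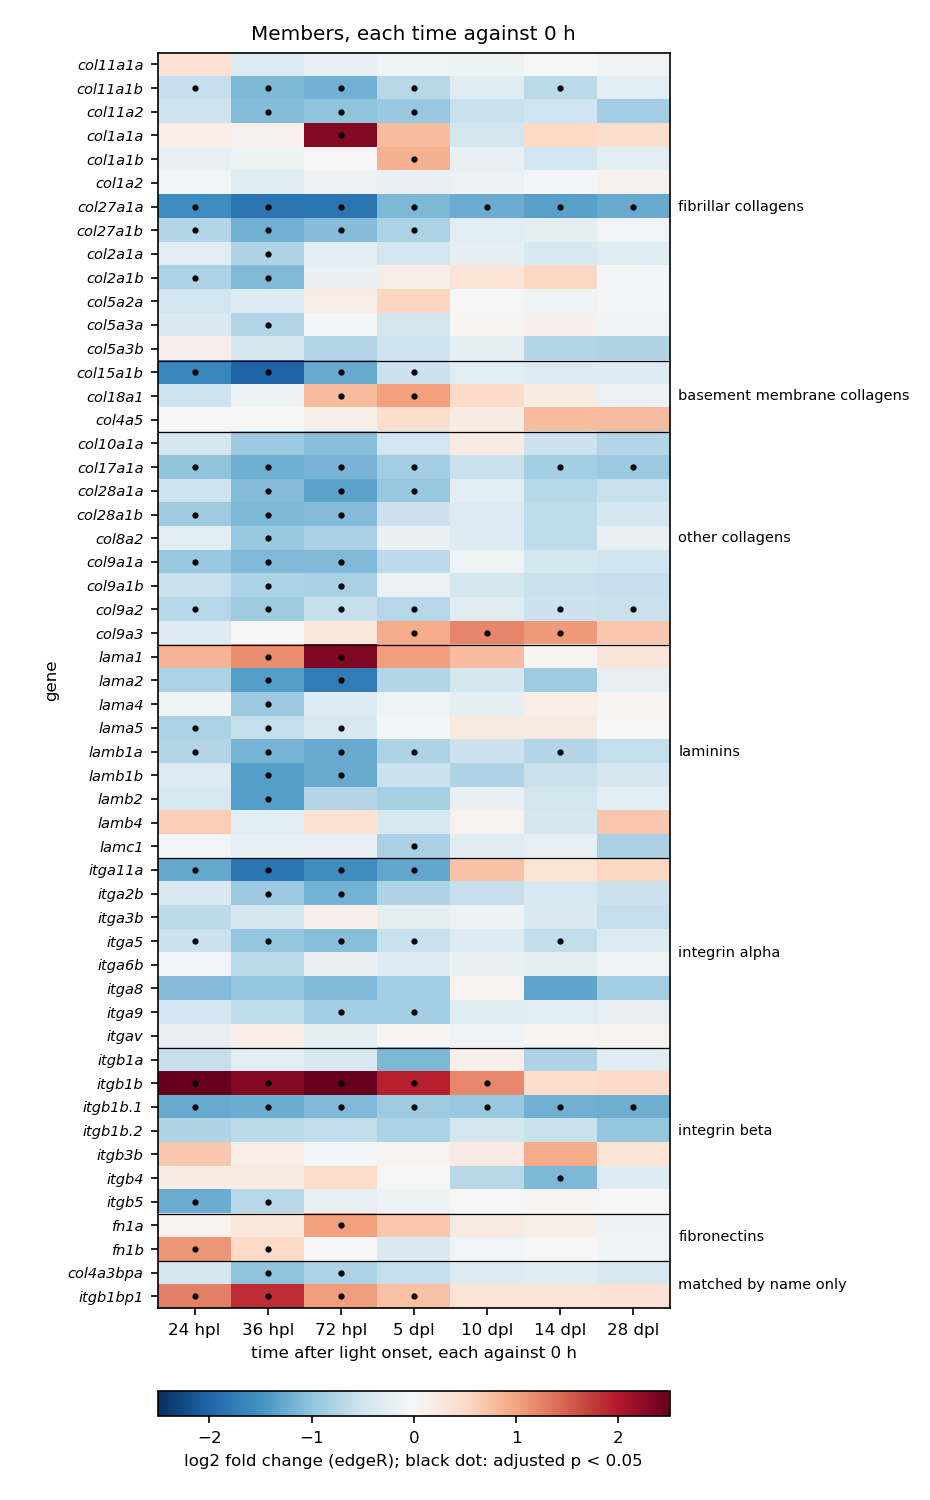
Log2 fold change of each of the 53 members (rows, by class) at each time against 0 h (columns), with red for higher and blue for lower; colours stop at 2.5 on either side and a black dot marks an adjusted p under 0.05. The largest increases are those of itgb1b, lama1 and col1a1a, up to 2.59, and the largest decreases those of col15a1b and col27a1a, down to -2.0.

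The receptors moved in opposite directions within the β1 family, whose product pairs with most matrix-binding α chains. The gene itgb1b had lowest, median and highest levels of 12.6, 25.1 and 33.7 CPM at 24 hpl, against 0.62, 5.15 and 7.16 CPM at 0 h. Every retina at 24 hpl was above every retina at 0 h, and the log2 fold change was 2.59 ± 0.37 (adjusted p = 7.84e-08, edgeR). It was 2.58 ± 0.37 at 72 hpl, where the 6 retinas spanned 11 to 42.8 CPM around a median of 26.3 and again did not overlap 0 h.

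At 5 dpl itgb1b ranged from 4.31 to 54.5 CPM around a median of 15.9, the highest value coming from the shallow library, and was still called (log2 fold change 1.94 ± 0.39, adjusted p = 7.21e-05, edgeR). At 10 dpl, at 1.8 to 15.2 CPM, its call (1.20 ± 0.40, adjusted p = 0.0408, edgeR) was lost without 0 h replicate 1, 2, 3, 4 or 6 (adjusted p = 0.0566 to 0.106). Experiment 2 gave 3.00 and experiment 1 gave 2.22 at 24 hpl, each called. Its level was nonetheless lower in experiment 2 than in experiment 1 over the whole time-course, by 1.37 on the log2 scale (SE 0.18).

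With both experiments fitted together, the neighbouring copy itgb1b.1 was lower than at 0 h at every time. At 24 hpl it had 10.5, 15.1 and 19.9 CPM (lowest, median, highest), and at 28 dpl 10.5, 14.8 and 20.9 CPM, against 23.6, 29.2 and 60.2 CPM at 0 h. Neither group overlapped 0 h. The log2 fold change was -1.25 ± 0.30 at 24 hpl (adjusted p = 0.000723, edgeR) and -1.22 ± 0.31 at 28 dpl (adjusted p = 0.00675, edgeR).

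Its calls moved with the library and the experiment. Without 0 h replicate 4 the adjusted p at 28 dpl was 0.0542, at 10 dpl 0.196 and at 5 dpl 0.129, and without 0 h replicate 6 it was 0.0748 at 10 dpl and 0.0567 at 5 dpl. Experiment 1 alone called it at no time (adjusted p = 0.13, 0.163 and 0.108 at 24, 36 and 72 hpl), whereas experiment 2 called it at each of those 3. At 28 dpl the log2 fold change was -1.81 in experiment 2 (adjusted p = 0.0104, edgeR) and -0.62 in experiment 1 (adjusted p = 0.37, edgeR). At 5 dpl experiment 2 gave -2.0 and experiment 1 gave 0.09. In experiment 1 the shallow library, 5 dpl replicate 2, held 61.8 CPM, against 17.3 and 32.7 CPM in replicates 1 and 3.

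The other β1 genes, itgb1a and itgb1b.2, were low, between 0 and 9.08 CPM and between 0 and 3.74 CPM over the 48 libraries, and were called at no time. In RefSeq's annotation (assembly GRCz12tu) itgb1b, itgb1b.2 and itgb1b.1 follow one another on one chromosome, and reads that fit more than one copy could have been split or dropped in counting, so the division between copies is uncertain. The sum of the 4 β1 genes does not depend on how reads were divided, though it would miss dropped reads. It had lowest, median and highest values of 32.3, 44.1 and 57.9 CPM at 24 hpl and 18.7, 27.9 and 33.5 CPM at 28 dpl, against 37, 44.4 and 63.9 CPM at 0 h. The sum at 24 hpl overlapped that at 0 h, while at 28 dpl every retina was below every 0 h retina; this sum was not tested.

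The regulator itgb1bp1, which binds the β1 tail and was matched by name only, rose early in both experiments. It had 56.3, 64.1 and 81 CPM at 36 hpl, against 8.71, 19.2 and 27.3 CPM at 0 h (lowest, median, highest). The groups did not overlap at 24, 36 or 72 hpl, and the log2 fold change was 1.25 ± 0.19, 1.85 ± 0.19 and 1.04 ± 0.19 at these times (adjusted p = 2.56e-07, 3.27e-12 and 1.01e-05, edgeR). Each experiment alone called all 3. By 5 dpl the change was 0.72 ± 0.20, and neither experiment alone called it (adjusted p = 0.0841 and 0.0834).

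A further β chain, itgb5, which pairs with αv and in mammals serves the pigment epithelium in taking up shed outer segments, fell at 24 hpl and was not called at 72 hpl. It had 11, 17 and 22 CPM at 24 hpl, against 27.3, 39.4 and 49.6 CPM at 0 h, with no overlap (log2 fold change -1.24 ± 0.19, adjusted p = 1.83e-07, edgeR). At 72 hpl it was at 23.3, 33.2 and 45.9 CPM, above every retina at 24 hpl (1.04 ± 0.18 for 72 hpl against 24 hpl, adjusted p = 1.02e-05, edgeR). Of the genes of the pigment epithelium 5 of 5 listed were measured, and 2 were called higher at 24 hpl and 0 lower. They summed to 567.4 to 2194 CPM at 24 hpl, which overlapped the 668.3 to 1334 CPM at 0 h. Their part in the itgb5 result was not tested.

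Of the remaining β chains 1 was called at a single time. The hemidesmosome chain itgb4 was called only at 14 dpl, at 2.12, 5.47 and 8.61 CPM, against 6.82, 12.6 and 16.7 CPM at 0 h (-1.12 ± 0.38, adjusted p = 0.0427, edgeR), and not without any one of 0 h replicates 2 to 6 (adjusted p = 0.0503 to 0.079). The chain itgb3b stayed between 0 and 10.5 CPM and was never called.

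No α chain was called higher at any time against 0 h, and 4 of 8 were called lower at 72 hpl. Of all genes 22.7% were called higher and 20.2% lower at 72 hpl. The fibronectin receptor chain itga5 had 24.1, 44.8 and 57.9 CPM at 72 hpl, against 62.4, 80.6 and 168 CPM at 0 h, with no overlap (log2 fold change -1.06 ± 0.21, adjusted p = 3.55e-05, edgeR). The value of 168 CPM belongs to 0 h replicate 4. Without that library the calls at 36 and 72 hpl held and those at 24 hpl, 5 dpl and 14 dpl did not (adjusted p = 0.217, 0.222 and 0.239), and the call at 24 hpl was also lost without replicate 6 (adjusted p = 0.0517).

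The collagen-binding chain itga11a was low in the light and not called from 10 dpl on. It had 1.29, 1.94 and 3.37 CPM at 36 hpl, against 0, 6.83 and 14.9 CPM at 0 h, which overlap because a single 0 h retina held no read (log2 fold change -1.80 ± 0.45, adjusted p = 0.000844, edgeR). Its calls at 24 hpl and 5 dpl were lost without 0 h replicate 4 (adjusted p = 0.115 and 0.141) or 6 (adjusted p = 0.0595 and 0.0607). Between 5 and 10 dpl it was the only member called higher (5.75% of all genes were), at 5.9, 11.3 and 19.8 CPM at 10 dpl, against 1.96, 3.08 and 3.7 CPM at 5 dpl. These groups did not overlap (2.02 ± 0.44, adjusted p = 0.000793, edgeR), with 2.07 from experiment 2 (adjusted p = 0.0562, edgeR) and 2.03 from experiment 1 (adjusted p = 0.0175, edgeR).

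The thrombocyte integrin chain itga2b had 1.83, 5.35 and 8.7 CPM at 72 hpl, against 6.22, 11.2 and 20.5 CPM at 0 h (-1.19 ± 0.32, adjusted p = 0.00169, edgeR). Of 4 thrombocyte markers 2 were measured (not gp9 and thbs1b). They summed to 4.67 to 13 CPM at 72 hpl, against 9.68 to 39.1 CPM at 0 h; mpl was called lower (-1.11 ± 0.32, adjusted p = 0.00395, edgeR) and gp1bb was not called. Their part in the result was not tested. The tenascin-binding chain itga9 had 2.14, 9.95 and 12.4 CPM at 72 hpl, against 4.36, 20.2 and 26.4 CPM at 0 h (-0.85 ± 0.34, adjusted p = 0.0394, edgeR), a call that was lost without 0 h replicate 1, 2 or 6 (adjusted p = 0.0564, 0.0878 and 0.146) and without the 3 libraries high in epidermis genes (36 hpl replicate 2, 72 hpl replicates 3 and 4; adjusted p = 0.133). The chain itgav, partner of several β chains, was between 20.7 and 40.8 CPM at 36 hpl, against 20.5 to 28.1 CPM at 0 h, and was not called at any time, nor were itga3b, itga6b and itga8.

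**Figure D3:**
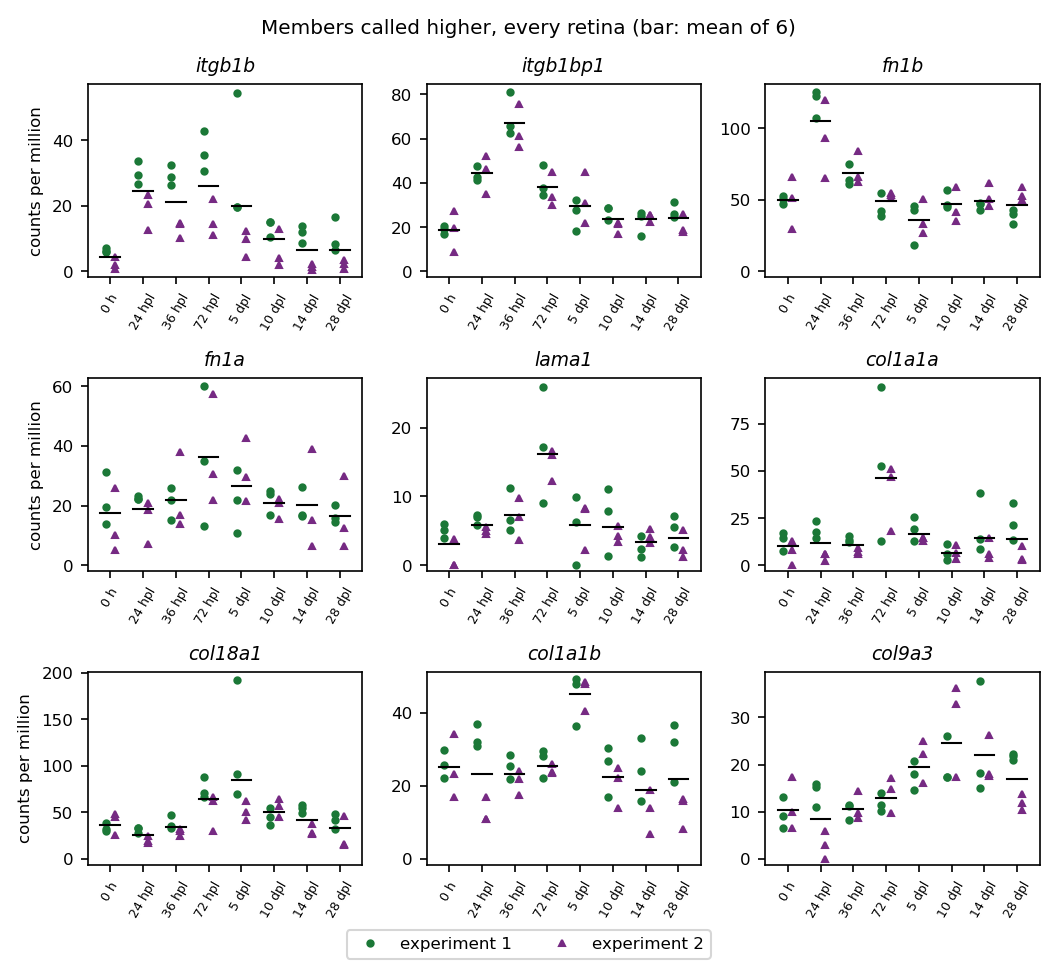
Levels in CPM (vertical axis, from 0) of 9 members called higher at some time, in each retina at 0 h and the 7 times after light onset (horizontal axis); circles are experiment 1, triangles experiment 2 and bars the mean of 6. The genes peak at different times: fn1b at 24 hpl, itgb1bp1 at 36 hpl, lama1 and col1a1a at 72 hpl, col1a1b at 5 dpl and col9a3 at 10 dpl.

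Fibronectin, the main ligand of α5β1, is encoded by a pair of genes that rose at different times. The gene fn1b had 64.9, 113 and 126 CPM at 24 hpl, against 29.9, 50.8 and 66 CPM at 0 h, overlapping by 1 retina of each group (log2 fold change 1.1 ± 0.17, adjusted p = 3.52e-07, edgeR). At 72 hpl it was at 38.5, 52.3 and 54.7 CPM, below every retina at 24 hpl (-1.11 ± 0.17, adjusted p = 3.83e-07, edgeR). Both experiments alone called the change at 24 hpl, by 0.94 in experiment 2 and 1.25 in experiment 1.

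The second gene, fn1a, had 13.2, 32.6 and 60.1 CPM at 72 hpl, against 4.98, 16.5 and 31.3 CPM at 0 h (1.03 ± 0.35, adjusted p = 0.0131, edgeR), and the groups overlapped. Neither experiment alone called it (adjusted p = 0.0705 in experiment 2 and 0.132 in experiment 1). Genes of cornea and epidermis, of which 6 of 7 were measured (not cldn1), summed to 41.2 to 555.8 CPM at 72 hpl, against 115.6 to 198 CPM at 0 h, with 1 called higher and 1 lower. When 36 hpl replicate 2 and 72 hpl replicates 3 and 4, the libraries with the highest of these sums, were left out (chosen after the data were seen), fn1a was no longer called (0.82, adjusted p = 0.0887). Genes of fibroblasts and sclera, 3 of 6 measured (not lum, fmoda and ogna), summed to 26.8 to 49.2 CPM at 72 hpl. At 0 h they summed to 11.2 to 30.2 CPM. Of the 3, 1 was called higher, with a median log2 fold change of 0.121, and their part in the result was not tested.

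Laminins are trimers of an α, a β and a γ chain that form the sheet of basement membranes. At 36 hpl 1 chain rose and 6 of 9 fell, where 23.6% of all genes were called higher and 23.4% lower. The gene lama1, whose product is a laminin α chain of the inner limiting membrane in mammals, had 9.08, 16.3 and 25.9 CPM at 72 hpl, against 0, 3.86 and 5.94 CPM at 0 h. The groups did not overlap (log2 fold change 2.32 ± 0.45, adjusted p = 2.4e-05, edgeR), nor did 72 hpl and 24 hpl, where it had 4.49, 5.62 and 7.3 CPM (1.47 ± 0.41, adjusted p = 0.0047, edgeR; adjusted p = 0.123 in experiment 2 and 0.0591 in experiment 1 alone). Against 0 h experiment 2 gave 3.37 and experiment 1 gave 1.76 at 72 hpl, each called. Its smaller change at 36 hpl (1.16 ± 0.46) was lost without 0 h replicate 4 or 6 (adjusted p = 0.0943 and 0.0612).

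The α chain lama5, which is common in vessel walls, fell during the light. It had 14.6, 24.9 and 28.4 CPM at 24 hpl, against 34.2, 40.4 and 46.5 CPM at 0 h, with no overlap (-0.79 ± 0.16, adjusted p = 7.89e-05, edgeR). At 10 dpl it stood at 43.9, 46.3 and 52.3 CPM and was not called. The chain lama2 had 0, 2.3 and 5.3 CPM at 72 hpl, against 1.87, 7.24 and 19.2 CPM at 0 h (-1.75 ± 0.59, adjusted p = 0.0127, edgeR), a call that was lost without 0 h replicate 4 (-1.11, adjusted p = 0.137) and in each experiment alone (adjusted p = 0.0717 in experiment 2 and 0.0844 in experiment 1). Endothelial markers, 6 of 7 measured (not tie1), summed to 116.9 to 150.2 CPM at 24 hpl and 119 to 172.8 CPM at 72 hpl, against 107.6 to 222 CPM at 0 h, with 1 called higher and 1 lower at each time. At 36 hpl they summed to 101.5 to 162 CPM, with 1 called higher and 2 lower. Their median log2 fold changes were -0.26, -0.635 and -0.463 at 24, 36 and 72 hpl. Their part in the laminin results was not tested.

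Of the 4 β chain genes 3 fell at 36 hpl, where 23.4% of all genes were called lower. The gene lamb1a had 15.1, 23.4 and 30.1 CPM at 72 hpl, against 28.6, 53.1 and 89.9 CPM at 0 h, overlapping by a single 0 h retina (-1.26 ± 0.23, adjusted p = 6.89e-06, edgeR), and each experiment alone called it. The gene lamb1b had 1.57, 4.67 and 10.8 CPM at 36 hpl, against 3.11, 14.1 and 17.6 CPM at 0 h (-1.38 ± 0.36, adjusted p = 0.00128, edgeR). The third, lamb2, had 0.772, 5.57 and 14 CPM at 36 hpl, against 9.96, 14 and 24.8 CPM at 0 h (-1.37 ± 0.36, adjusted p = 0.00144, edgeR), and here experiment 2 gave -2.87 and experiment 1 gave -0.29. The shared γ chain lamc1, present in most laminin trimers, was called only at 5 dpl, at 14, 20.8 and 33 CPM, against 14.9, 40 and 57.2 CPM at 0 h (-0.82 ± 0.30, adjusted p = 0.0304, edgeR), and not without 0 h replicate 1, 2 or 4 (adjusted p = 0.0731, 0.0807 and 0.0943).

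The 3 basement membrane collagen genes that were counted diverged. Of the collagen IV chains only col4a5 was among the symbols counted. The gene col15a1b, for a collagen that carries glycosaminoglycan chains and lies at the outer face of vessel and muscle basement membranes, had 10.7, 13 and 18.7 CPM at 36 hpl, against 31.7, 54.1 and 78.2 CPM at 0 h. No retina at 24, 36 or 72 hpl reached the lowest at 0 h, and the log2 fold change was -1.63 ± 0.20, -2.0 ± 0.20 and -1.26 ± 0.19 at these times (adjusted p = 1.14e-09, 2.25e-12 and 2.83e-07, edgeR). Each experiment alone called all 3. At 5 dpl the change was -0.53 ± 0.19 (experiment 2 gave -1.20 and experiment 1 gave 0.12), and its call was lost without 0 h replicate 4 or 5 (adjusted p = 0.172 and 0.0869).

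Its relative col18a1, the source of endostatin, rose instead. It had 30.5, 66.7 and 88.3 CPM at 72 hpl and 41.5, 66.4 and 193 CPM at 5 dpl, against 25.5, 35.2 and 48.4 CPM at 0 h. Both groups overlapped 0 h, and the log2 fold change was 0.79 ± 0.24 at 72 hpl and 1.02 ± 0.24 at 5 dpl (adjusted p = 0.00557 and 0.000803, edgeR). Experiment 2 alone called neither change (0.38 at 72 hpl and 0.34 at 5 dpl, adjusted p = 0.428 and 0.495, edgeR), while experiment 1, which holds the shallow library with 193 CPM, called both (1.16 and 1.61). The third gene, col4a5, for a chain of the collagen IV network, lay between 8.04 and 19.8 CPM at 36 hpl, against 1.86 to 18.7 CPM at 0 h, and was never called.

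Among the fibrillar collagens the α1(I) genes were the ones called higher than at 0 h, each at its own time. The gene col1a1a had 12.8, 48.8 and 94.7 CPM at 72 hpl, against 0, 10.5 and 17.1 CPM at 0 h (log2 fold change 2.30 ± 0.44, adjusted p = 2.26e-05, edgeR). One retina at 72 hpl lay within the 0 h range. By 5 dpl it was at 12.6, 14.3 and 25.4 CPM and not called. Experiment 2 gave 2.48 and experiment 1 gave 2.03 at 72 hpl, each called. Genes of pericytes and smooth muscle, 5 of 6 measured (not cspg4), summed to 141.5 to 178.6 CPM at 72 hpl. At 0 h they summed to 54.8 to 118.2 CPM. Only 1 was called higher (notch3, 2.34 on the log2 scale), and the median log2 fold change of the 5 was -0.000958. Their part in the col1a1a result, and that of the fibroblast genes given above, was not tested.

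Its duplicate col1a1b was at 22.2 to 29.5 CPM at 72 hpl and peaked at 5 dpl, with 36.3, 47.9 and 49.1 CPM, against 16.8, 24.4 and 34.1 CPM at 0 h. These groups did not overlap (0.89 ± 0.24, adjusted p = 0.00276, edgeR), although experiment 2 alone did not call the change (0.84, adjusted p = 0.0696, edgeR). At 10 dpl it had 13.8, 23.5 and 30.3 CPM, below every retina at 5 dpl, and was the only member called lower there (-1.07 ± 0.24, adjusted p = 0.000924, edgeR); 12.6% of all genes were called between these times and 6.81% were called lower. The partner chain col1a2, which joins the α1 chains in the type I trimer, was at 40.8 to 72 CPM at 72 hpl, against 45 to 82 CPM at 0 h, and was called at no time.

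The fibrillar gene called lower at most times was col27a1a, best known from cartilage. It had 4.09, 12.6 and 30.4 CPM at 36 hpl and 15.3, 19.5 and 30.5 CPM at 28 dpl, against 40.4, 46.2 and 62 CPM at 0 h. It was called lower at all 7 times and overlapped 0 h only at 5 dpl, where the shallow library reached 76.3 CPM. The log2 fold change was -1.83 ± 0.28 at 36 hpl (adjusted p = 2.39e-07, edgeR) and -1.25 ± 0.28 at 28 dpl (adjusted p = 0.0017, edgeR). From 5 to 28 dpl experiment 2 called it at each time and experiment 1 at none (adjusted p = 0.355, 0.0541, 0.148 and 0.0697, edgeR), the log2 fold change at 28 dpl being -1.48 in experiment 2 and -0.98 in experiment 1.

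The vitreous and cartilage share type II, V and XI fibrils. Of the 8 genes of these fibrils 5 were called lower at 36 hpl, where 23.4% of all genes were called lower. The other 3 (col11a1a, col5a2a and col5a3b) were not called, and the median log2 fold change of the 8 was -0.74. The gene col2a1a had 31.1, 46.4 and 95.9 CPM at 36 hpl, against 54.1, 94.5 and 112 CPM at 0 h (-0.76 ± 0.20, adjusted p = 0.00131, edgeR). The minor fibril chain col5a3a had 29.1, 51 and 84.2 CPM, against 64.1, 90.1 and 97.1 CPM at 0 h (-0.73 ± 0.20, adjusted p = 0.00238, edgeR), and col11a2 had 3.46, 10.8 and 26.2 CPM, against 6.22, 25.9 and 45 CPM at 0 h (-1.08 ± 0.36, adjusted p = 0.0108, edgeR). All 3 overlapped 0 h, and the F test over all 8 groups did not call col2a1a or col11a2. The other 2 called were col11a1b (-1.13 ± 0.20, adjusted p = 3.41e-06, edgeR), which overlapped 0 h, and col2a1b (-1.1 ± 0.22, adjusted p = 3.11e-05, edgeR), which did not. The type XI chain col11a1a was called at no time, at 29.2 to 77.2 CPM, against 34.2 to 82.8 CPM at 0 h.

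Vitreous genes had lower sums at 36 hpl as well, but did not follow the fibril genes at every time. Of 5 listed names 4 were measured, optc among them. The name not found, opticin, is a second name of optc. Summed levels were 32.3 to 51.6 CPM at 36 hpl, against 58.3 to 151.3 CPM at 0 h, and 2 were called lower. At 5 dpl 1 was called higher and 0 lower, with a median log2 fold change of 0.531. The 8 fibril genes had a median of -0.458 at 5 dpl, with 0 called higher and 2 lower. Of 6 cartilage genes 2 were measured, hapln1a and sox9a (not acana, matn1, snorc and cnmd). They summed to 5.92 to 13.6 CPM at 36 hpl, against 2.49 to 8.54 CPM at 0 h. Of the 2, sox9a was called higher and hapln1a was not, so the list rests on few genes. The gene hapln1a is also in the vitreous list, so the lists are not separate readouts. The part of vitreous taken with the retina in these collagen results was not tested.

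**Figure D4:**
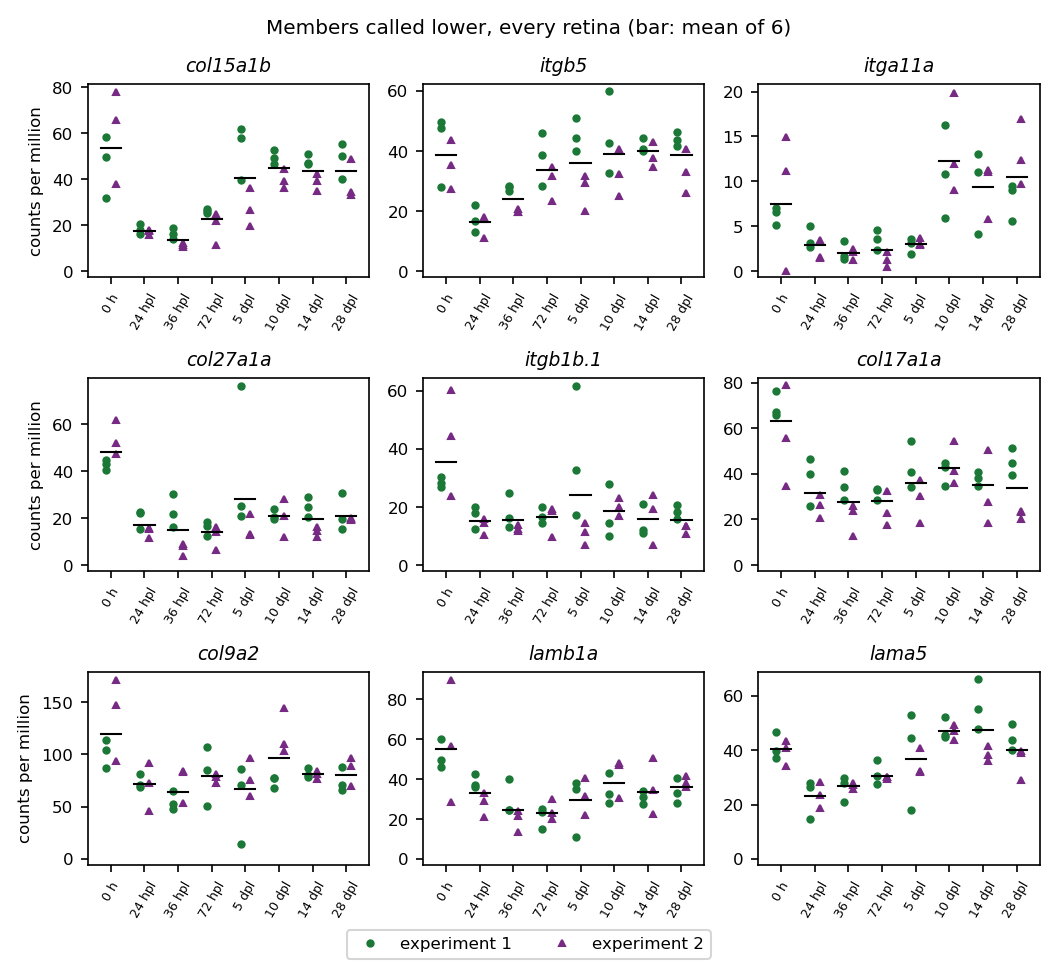
Levels in CPM (vertical axis, from 0) of 9 members called lower at some time, in each retina at 0 h and the 7 times after light onset (horizontal axis); circles are experiment 1, triangles experiment 2 and bars the mean of 6. By 10 dpl col15a1b, itgb5 and lama5 overlap 0 h, whereas col27a1a at 28 dpl spans 15.3 to 30.5 CPM, below every 0 h retina.

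Of the 9 other collagens 7 fell at 36 hpl and none rose, where 23.4% of all genes were called lower and 23.6% higher. The gene col17a1a, for a transmembrane collagen of hemidesmosomes, was lower at every time but 10 dpl. It had 17.7, 30.3 and 33.5 CPM at 72 hpl and 20.2, 31.7 and 51.4 CPM at 28 dpl, against 34.8, 66.4 and 78.8 CPM at 0 h (log2 fold change -1.17 ± 0.21 and -0.93 ± 0.21, adjusted p = 7.15e-06 and 0.00231, edgeR). Only the 72 hpl retinas did not overlap 0 h, and at 28 dpl experiment 1 alone did not call it (adjusted p = 0.0617, edgeR). Cornea and epidermis genes, given above, summed to 61.2 to 75.2 CPM at 24 hpl, against 115.6 to 198 CPM at 0 h, with 2 called lower, and their part in the col17a1a result was not tested.

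Among the genes of collagen IX, which decorates type II fibrils, col9a1a, col9a2 and col9a1b were lower at 36 hpl, and col9a3 was higher at later times. The gene col9a1a was at 4.82 to 21.6 CPM at 36 hpl, against 22.3 to 41.6 CPM at 0 h, with no overlap. The F test over all 8 groups called it (adjusted p = 0.00056, edgeR) but not col9a1b (adjusted p = 0.126, edgeR). Such calls are not a test of a difference between the genes. The chain gene col9a2 had 47.6, 59.2 and 83.6 CPM at 36 hpl, against 87.1, 109 and 171 CPM at 0 h, with no overlap (-0.90 ± 0.19, adjusted p = 6.05e-05, edgeR). It was also called at 28 dpl (-0.56 ± 0.19, adjusted p = 0.0465, edgeR), though not without 0 h replicate 1, 2, 4 or 6 (adjusted p = 0.0567 to 0.174). Its partner col9a1b had 11.1, 14.2 and 25.3 CPM at 36 hpl, against 14.9, 28 and 39.3 CPM at 0 h (-0.79 ± 0.29, adjusted p = 0.0213, edgeR), which was lost without 0 h replicate 4 (adjusted p = 0.0558).

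A further collagen IX gene, col9a3, was the only member called higher at 14 dpl and 1 of the 2 called higher at 10 dpl. It had 17.3, 21.8 and 36.2 CPM at 10 dpl, against 6.51, 9.56 and 17.4 CPM at 0 h, overlapping narrowly (1.23 ± 0.34, adjusted p = 0.0116, edgeR). Neither experiment alone called it at 10 dpl (adjusted p = 0.125 in experiment 2 and 0.0516 in experiment 1). Its calls at 5 and 14 dpl were each lost without 0 h replicate 1, 2 or 6 (adjusted p = 0.059 to 0.0825).

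Last of this class, col28a1a, for a collagen with von Willebrand factor domains known from peripheral nerve in mammals, had 4.88, 7.82 and 23.8 CPM at 72 hpl, against 16.2, 25.2 and 36.4 CPM at 0 h (-1.34 ± 0.28, adjusted p = 9.99e-05, edgeR). The groups overlapped through one 72 hpl retina. The change was called in each experiment, with -1.52 from experiment 2 and -1.28 from experiment 1. Among the rest, col10a1a, col5a3b, lamb4, col4a5, col1a2, col11a1a and col5a2a were called at no time.

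Between 24 and 72 hpl, while the light was on, 10 members were called (25.7% of all genes), 6 higher and 4 lower (all genes 13.9% and 11.8%). Scaling by library size alone gave 4 higher and 7 lower. Besides itgb5, lama1 and fn1b, described above, col1a1a was at 12.8, 48.8 and 94.7 CPM at 72 hpl, against 2, 10.3 and 23.2 CPM at 24 hpl (log2 fold change 2.15 ± 0.43, adjusted p = 7e-05, edgeR). The gene col18a1 was at 30.5, 66.7 and 88.3 CPM at 72 hpl, against 17, 26 and 33.6 CPM at 24 hpl (1.32 ± 0.24, adjusted p = 1.83e-05, edgeR), with both pairs of groups overlapping. The call of fn1a (0.95 ± 0.34) was lost without the 3 libraries high in epidermis genes (adjusted p = 0.178).

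Naive retinas were in the deposited pseudo-count table only, in which one unit equals about 1 read after the authors' scaling to a common depth. They were compared there by limma on log2(pseudo-count + 1) over 11700 genes, 50 members among them, a scale that understates the fold changes of low genes. Dark-adapted 0 h retinas and 28 dpl retinas were both higher than naive in many members. At 28 dpl 25 members were called (37.4% of all genes), 24 higher and 1 lower than naive, where 19.7% and 17.6% of all genes were called higher and lower. At 0 h 32 were called (53.5% of all genes), 30 higher and 2 lower than naive, where 26.5% and 26.9% of all genes were called higher and lower. The members' median log2 fold change was 0.85 at 28 dpl and 0.95 at 0 h, beside 0.05 and 0.02 over all genes. Both comparisons use the same naive retinas, which belong to neither experiment, so that group and set of libraries cannot be told apart.

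Of 23 collagens tested against naive, 9 were called higher and 1 lower at 28 dpl, and 14 higher and 1 lower at 0 h. Of all genes 19.7% were called higher and 17.6% lower at 28 dpl, and 26.5% higher and 26.9% lower at 0 h. The gene col27a1a had 28.9, 37.4 and 59.6 pseudo-counts at 28 dpl (lowest, median, highest), against 2.14, 13.4 and 16.6 in naive retinas, and 75.6, 88.2 and 116 at 0 h. Both groups lay above naive without overlap, by 1.93 ± 0.33 at 28 dpl and 3.13 ± 0.33 at 0 h on the log2 scale (adjusted p = 0.000127 and 1.25e-07, limma). The gene called lower than 0 h at all 7 times was thus higher at 28 dpl than in naive retinas.

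The same order held for itgb1b.1, with 20.4, 28.4 and 40.7 pseudo-counts at 28 dpl, against 4.13, 6.71 and 17.5 in naive retinas, and 45.3, 55.5 and 112 at 0 h (1.81 ± 0.31 and 2.92 ± 0.31 against naive, adjusted p = 0.00015 and 1.58e-07, limma). No 28 dpl or 0 h retina overlapped naive. For col28a1b the values were 35, 40.4 and 48.9 at 28 dpl, against 1.37, 4.98 and 10.2 in naive retinas, and 29.8, 61.3 and 79.7 at 0 h (2.85 ± 0.35 and 3.18 ± 0.35, adjusted p = 6.04e-06 and 2.15e-07, limma), again with no overlap. The type XI gene col11a2 had 3.64, 26.1 and 45.9 at 28 dpl, against 0.101, 3.08 and 7.22 in naive retinas, and 12.3, 49.1 and 85.5 at 0 h (2.59 ± 0.57 and 3.5 ± 0.57, adjusted p = 0.00131 and 2.49e-05, limma), where 28 dpl overlapped naive and 0 h did not.

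**Figure D5:**
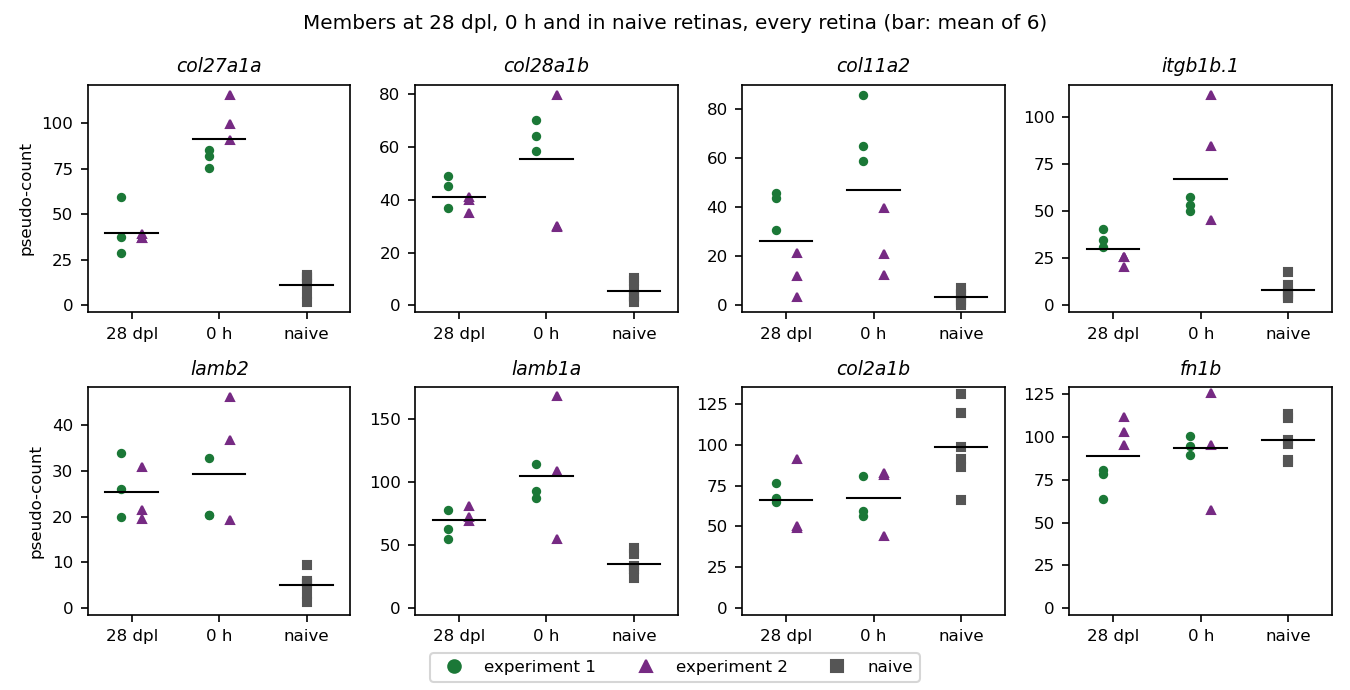
Pseudo-counts (vertical axis, from 0) of 8 members in each retina at 28 dpl, at 0 h and in naive fish; circles are experiment 1, triangles experiment 2, squares naive retinas and bars the mean of 6. In col27a1a, col28a1b, itgb1b.1, lamb2 and lamb1a every 28 dpl and every 0 h retina lies above every naive retina, whereas col2a1b is lower than naive and fn1b overlaps it.

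Laminins were higher in 7 of 9 at 28 dpl and in 6 of 9 at 0 h than in naive retinas. The 7 include lama1 and lamb4 and the 6 include lamb4, which no naive retina carried through the filter. Of all genes 19.7% were called higher at 28 dpl and 26.5% at 0 h. The chain gene lamb2 had 19.5, 23.7 and 33.9 pseudo-counts at 28 dpl, against 1.38, 5.37 and 9.35 in naive retinas (2.22 ± 0.35, adjusted p = 5.99e-05, limma), and lamb1a had 54.6, 70.6 and 81.2, against 23.9, 32.3 and 47.7 (0.99 ± 0.22, adjusted p = 0.00142, limma), neither overlapping. The type VIII gene col8a2, whose product forms the sheet under the corneal endothelium in mammals, had 6.92, 21.1 and 43.4 at 28 dpl, against 0.117, 2.63 and 10.3 in naive retinas, with overlap (2.56 ± 0.53, adjusted p = 0.000785, limma). At 0 h the nephronectin receptor chain itga8 had 6.2, 12.6 and 24.6, against 0.00755, 1.22 and 3.09 in naive retinas (2.83 ± 0.58, adjusted p = 0.000295, limma). No naive retina reached the filter's value for itga8, so it was tested only because other groups were high.

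Of the 50 members tested, 1 was called lower than naive at 28 dpl and 2 at 0 h. The duplicate type II gene col2a1b was lower than naive at 28 dpl, at 48.9, 66.1 and 91.1 pseudo-counts, against 66.2, 95.1 and 131 in naive retinas (-0.57 ± 0.20, adjusted p = 0.0328, limma), and lower at 0 h too (-0.55 ± 0.20, adjusted p = 0.0279, limma), a call lost without 0 h replicate 1, 2 or 4 (adjusted p = 0.0528 to 0.077). The regulator itgb1bp1 was lower at 0 h, at 16.9, 36.7 and 50.7, against 38.6, 56.3 and 70.6 in naive retinas (-0.69 ± 0.24, adjusted p = 0.0186, limma), a call lost without 0 h replicate 5 (adjusted p = 0.0522). Neither fibronectin gene nor itgb1b was called against naive.

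Sums of marker genes also differed between these sets. Genes of Müller glia, 7 of 7 measured, summed to 4382 to 5883 pseudo-counts at 28 dpl, against 6552 to 8797 in naive retinas, and to 4085 to 5809 at 0 h, with 4 called lower and 1 higher at 28 dpl and 5 lower at 0 h. The 9 rod and cone genes summed to 113874 to 140010 at 28 dpl, against 169849 to 196964 in naive retinas, with 4 called lower, and to 96635 to 151757 at 0 h, with 5 called lower and 1 higher. Neither group overlapped naive in these sums. All 5 pigment epithelium genes were called lower than naive at 0 h (median log2 fold change -1.19), where the median at 28 dpl was -0.33, and their sums overlapped naive, at 1856 to 4480 at 28 dpl, against 1124 to 6024 in naive retinas, and 1250 to 2543 at 0 h. Vitreous genes summed to 105 to 175.8 at 28 dpl, against 215.3 to 423.9 in naive retinas, with 1 of the 3 tested called lower and a median log2 fold change of 0.47. At 0 h they summed to 110.6 to 282, with 1 called lower and a median of 1.03. Genes of cornea and epidermis summed to 186.8 to 294.8 at 28 dpl, overlapping the 63.2 to 292.4 of naive retinas, with 2 of 5 tested called higher. At 0 h 3 of the 5 were called higher and 0 lower (median 1.01). Of 3 fibroblast and sclera genes tested, 2 were called higher at 28 dpl and 1 at 0 h, and 0 lower (medians 0.928 and 0.587). Of 6 endothelial genes, 2 were called higher and 0 lower at 28 dpl, and 3 higher and 1 lower at 0 h (medians 0.285 and 0.271). The total of all pseudo-counts per library was 1513696 to 2443194 in the time-course and 2497761 to 2707270 in naive retinas. The part of these differences in the members' results was not tested.

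The experiments differed in the members' levels. Over the time-course 33 members were called between experiment 2 and experiment 1 (54.1% of all genes), 3 higher and 30 lower in experiment 2, where 26.1% and 28% of all genes were called higher and lower. The members called lower were 17 of the 25 collagens, 4 of the 9 laminins, 6 of the 8 α chains and 3 of the 7 β chains. The 3 called higher were col11a1a, col9a2 and itga5, by 0.33, 0.22 and 0.42 on the log2 scale. No fibronectin was called.

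Genes that act on these proteins were followed as lists written from general knowledge. Of 42 enzymes and chaperones of collagen folding and crosslinking 26 were kept, and 7 were called higher and 5 lower at 72 hpl, or 26.9% and 19.2%, near the 22.7% and 20.2% of all genes. The collagen-specific chaperone gene serpinh1b had 151, 280 and 322 CPM at 72 hpl, against 5.58, 15.2 and 26.4 CPM at 0 h, with no overlap (log2 fold change 4.10 ± 0.39, adjusted p = 3.67e-13, edgeR). At 5 dpl it was back at 0 to 28 CPM. The prolyl isomerase gene ppib (1.63 ± 0.13) and serpinh1a (3.34 ± 0.34) were also called higher at 72 hpl, and the prolyl hydroxylase gene p4ha1b was called lower (-2.5 ± 0.38).

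In the list of the integrin adhesion complex, which holds no integrin chain, more genes were called higher than lower. Of 45 genes of the integrin adhesion complex 30 were kept, itgb1bp1 among them, and 11 were called higher and 3 lower at 24 hpl, 13 and 2 at 36 hpl, and 13 and 3 at 72 hpl. The shares called higher were 36.7%, 43.3% and 43.3% at these times, beside 19%, 23.6% and 22.7% of all genes, and the shares called lower were 10%, 6.67% and 10%, beside 17.7%, 23.4% and 20.2%. The talin gene tln1, whose product activates integrins from inside the cell, had 242, 301 and 331 CPM at 36 hpl, against 72.2, 97 and 107 CPM at 0 h, with no overlap (1.64 ± 0.12, adjusted p = 6.61e-17, edgeR). Its paralog tln2a was called lower (-1.27 ± 0.15). The kindlin gene of blood cells, fermt3b, had 15.7, 20.7 and 28.3 CPM at 24 hpl, against 0.511, 2.76 and 4.65 CPM at 0 h (2.94 ± 0.45, adjusted p = 2.53e-07, edgeR). Microglia and macrophage genes, given above, were higher in the same retinas, and so were neutrophil genes, 4 of 4 measured, with sums of 54.9 to 242.7 CPM at 24 hpl, against 14.9 to 71.7 CPM at 0 h and 2 called higher; their part was not tested.

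Among partners in the matrix the shares called lower at 36 hpl were near that of all genes. The shares called higher were below that of all genes, and the median changes lay below the median of all genes. Of 24 basement membrane partners 17 were kept, with 1 called higher and 5 lower at 36 hpl, or 5.88% and 29.4%, beside 23.6% and 23.4% of all genes. Their median log2 fold change at 36 hpl was -0.827, beside -0.732 for the members and -0.0839 over all genes. The collagen-binding glycoprotein gene sparc was called lower at 24 hpl (-0.81 ± 0.16) and higher at 5 dpl (1.01 ± 0.15). Of 42 matricellular and provisional matrix genes 21 were kept, with 2 called higher and 6 lower at 36 hpl (9.52% and 28.6%). Their median log2 fold change at 36 hpl was -0.405. At 72 hpl 2 were called higher and 5 lower (9.52% and 23.8%, beside 22.7% and 20.2% of all genes). Tenascin C (tnc), a ligand of several integrins, had 53.5, 79.5 and 108 CPM at 72 hpl, against 11.2, 21.6 and 24.8 CPM at 0 h, with no overlap (1.98 ± 0.19, adjusted p = 9.87e-13, edgeR), and the neural tenascin gene tnr had 68.2, 92.8 and 108 CPM at 24 hpl, against 244, 311 and 461 CPM at 0 h (-1.86 ± 0.16, adjusted p = 1.45e-14, edgeR).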

How the data were processed

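Albino zebrafish retinas (1 per library, 54 libraries, 9 groups of 6) were profiled by 3′ mRNA sequencing. Alignment was by STAR and gene counting by HTSeq, followed by edgeR in the hands of the authors; versions and the strand setting are not given in the sources used here. They deposited raw read counts, analysed as deposited for the 48 time-course libraries, and one table of pseudo-counts, a signal the authors scaled to a common depth, used for naive retinas; 12 entries turned into dates were left out. Deposited columns of the authors' own comparisons (log2 fold change, log CPM, likelihood ratio, p-value and FDR) were not used. Where genes overlap on opposite strands their reads cannot be told apart here.

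Genes that reached 5 reads in 6 or more libraries were tested with edgeR 4.0.16 (trimmed mean of M values, quasi-likelihood F test, group plus experiment), and pseudo-counts with limma 3.58.1 (pseudocount 1, values of at least 5 in 6 of 18 libraries), under R 4.3.3; DESeq2 1.42.0 was an alternative. p-values were adjusted over all genes. The code was tested on simulated data. Members and gene lists were chosen with earlier results of these data known. Named with values were, per comparison, up to 5 members called higher and up to 5 lower with the largest change and a mean of at least 5 CPM (10 pseudo-counts against naive) in the higher group, the 3 highest of each main class, and both fibronectins; of each pathway list, up to 4 called genes with the smallest p. Some other members are mentioned with their range or call, chosen after their values were seen. Tried alternatives were other scalings and read filters, DESeq2's Wald test, no experiment term, a replicate block, each experiment alone, pseudocounts of 0.5 and 5, quantile normalization, only the 12 libraries compared, and leaving out 5 dpl replicate 2, each 0 h library, or 3 libraries high in epidermis genes. The alternatives without a 0 h library or without the 3 libraries were chosen after seeing the data.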

Additional observations from a re-analysis of the deposited data

Results flagged for a closer look

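Among the named genes, 312 groups of 6 values were examined for a value far from the other 5, and 18 values stood apart. Chance flags about 1 in 20 independent groups. These groups share libraries between genes, so the number flagged cannot be judged against that rate. Of the 18 values, 5 came from 5 dpl replicate 2, the library with 228611 reads. It was the highest of its group for col18a1 (193 CPM, next 90.9), col27a1a (76.3 CPM, next 25.1), col8a2 (58.1 CPM, next 14.8), itga5 (138 CPM, next 63.4) and itgb1b (54.5 CPM, next 19.7). The highest of their group were also itga5 in 0 h replicate 4 (168 CPM, next 89.3), lamb1b in 24 hpl replicate 3 (21.5 CPM), col9a1b and itgb1b.1 in 36 hpl replicate 1 (25.3 and 24.8 CPM), col4a5 in 36 hpl replicate 5 (19.8 CPM), lama5 in 72 hpl replicate 1 (36.4 CPM), col28a1a in 72 hpl replicate 3 (23.8 CPM), col1a1a in 14 dpl replicate 3 (38.3 CPM), col5a3a in 14 dpl replicate 4 (139 CPM) and col27a1a in 28 dpl replicate 3 (30.5 CPM). The lowest of their group were fn1a in 24 hpl replicate 6 (6.99 CPM), col15a1b in 72 hpl replicate 5 (11.2 CPM) and itga8 in 10 dpl replicate 5 (2.27 CPM).

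The change against 0 h differed between the experiments in 3 of 371 tests over the members (edgeR interaction term, adjusted over all genes), or 0.809%, beside 464 of 91525 tests (0.507%) over all genes. The log2 fold change in experiment 2 minus that in experiment 1 was -2.02 for col27a1a at 36 hpl (adjusted p = 0.0338), -2.59 for lamb2 at 36 hpl (adjusted p = 0.0412) and -2.12 for itgb1b.1 at 5 dpl (adjusted p = 0.0426). All 3 changes were lower in experiment 2 than in experiment 1, where itgb1b.1 did not fall at 5 dpl.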

How the results depend on the processing

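The members called against 0 h numbered 18, 31, 27, 19, 4, 9 and 4 from 24 hpl to 28 dpl. For the alternative fits of this section, and those by library size alone given above, the share of all genes called is not given. Their counts cannot be read as particular to the members. Experiment 2 alone, with 24 libraries, gave 17 (72 hpl), 12 (5 dpl), 1 (10 dpl) and 4 (14 dpl), and 6 in place of 10 between 24 and 72 hpl. Experiment 1 alone, with 24 libraries, gave 11 (24 hpl), 18 (36 hpl), 5 (5 dpl), 2 (10 dpl), 3 (14 dpl) and 2 (28 dpl). With no experiment term the counts were 12 (5 dpl), 2 (10 dpl) and 4 (14 dpl); the cause was not tested. DESeq2's Wald test called 4 members between 5 and 10 dpl, where edgeR called 2. In experiment 1 alone the change at 5 dpl was reversed for col15a1b (0.12) and itgb1b.1 (0.093), neither called.

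Leaving out one 0 h library (chosen after seeing the data) or 5 dpl replicate 2 gave 13 to 18 members (24 hpl), 27 to 31 (36 hpl), 23 to 27 (72 hpl), 14 to 22 (5 dpl), 2 to 6 (10 dpl), 4 to 9 (14 dpl) and 2 to 6 (28 dpl), with 8 to 14 between 24 and 72 hpl, 2 to 3 between 5 and 10 dpl, 24 to 26 for 28 dpl against naive and 27 to 32 for 0 h against naive. Quantile normalization gave 17 in place of 25 members for 28 dpl against naive and 27 in place of 32 for 0 h against naive. Of 2520 alternative values for 159 calls of 39 named genes, 2255 kept direction and call, 263 kept direction only and 2 reversed.

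A replicate block gave 18, 29, 27, 18, 4, 8 and 3 members from 24 hpl to 28 dpl. Same-numbered retinas did not deviate together (mean correlation -0.01, from -0.14 to 0.10), so the numbers do not pair the samples; p-values measure the spread between single fish. Depth limits members under about 5 CPM, which rest on few reads per retina.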
